A study of Homo sapiens with 6 samples.

Results

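The 10 genes described here encode the core of the BCL2 family of apoptosis regulators, chosen by name from the 19589 features of the deposited gene table: BCL2, BCL2L1, MCL1, BAX, BAK1, BBC3, PMAIP1, BID, BAD and BCL2L11. RNA sequencing compared libraries labelled HepG2, a liver cancer line, transfected with small interfering RNA directed at the long non-coding RNA HOTAIR (siHOTAIR) or with a negative-control siRNA (siNC). The cells of both groups were grown in the same high-glucose medium with serum, and the labels give no dose and no time after transfection. The labels describe 3 libraries in each group, but the reads behind the deposited means belong to 5, namely 3 siHOTAIR and 2 siNC libraries, and the other labelled siNC library is not accounted for. Whether the replicates were separate cultures is not stated, so p-values measure only how these libraries varied, and that variation may be technical.

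Proteins of the BCL2 family decide whether the outer mitochondrial membrane is opened, the step that releases cytochrome c and starts the caspase cascade. BAX and BAK1 are the effectors that form the pores. BCL2, BCL2L1 (BCL-XL) and MCL1 are pro-survival proteins that hold the effectors and their activators in check. BBC3 (PUMA), PMAIP1 (NOXA), BID, BAD and BCL2L11 (BIM) carry only the BH3 domain of the family and act as sensors of damage, cytokine withdrawal or death receptor signals. Much of the family's control lies in protein binding, phosphorylation and turnover, and MCL1 in particular is a short-lived protein, none of which RNA sequencing measures. Several of these genes also make splice forms of opposite activity, such as the long and short forms of BCL2L1, which a count per gene adds together.

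The 5 libraries held between 4862053 and 6384101 recovered reads each in features with a mean of 5 to 3000, and their size factors ran from 0.888 to 1.19. Libraries are called siNC A and B and siHOTAIR A, B and C in order of decreasing size factor, since the labels' replicate numbers cannot be attached to them. HOTAIR, the targeted RNA, had 241 and 134 reads in siNC A and B against 72, 73 and 53 in siHOTAIR A, B and C, and its normalized counts were 176 ± 36.5 (SD, n = 2) and 66.7 ± 9.97 (SD, n = 3), 37.9% of the siNC mean. The authors' deposited table puts HOTAIR lower in siHOTAIR, with a log2 fold change of -1.37 and an SE of 0.197 (adjusted p = 5.6e-11). The label of the cell line was checked against 16 hepatocyte and HepG2 markers: 8, among them ALB and AFP, have no row in the deposited table, and 6 more, including APOA1, TF and SERPINA1, have a mean under 1 read. HNF4A has a mean of 5.06 in the authors' deposited table. The text therefore says "libraries labelled HepG2" and gives the cells no other name. Some other lineage genes moved with the groups. The summed normalized counts of 5 of 7 fibroblast markers were 1240 in both siNC libraries and between 2144 and 2545 in siHOTAIR. COL1A1 and PDGFRB carried this sum. Of the 5 tested, 3 rose in the authors' deposited table. COL3A1, at -0.07 (adjusted p = 0.904), and THY1, at 0.71 (adjusted p = 0.274), did not pass there. The sum of 3 of 5 endothelial markers, carried by ENG, went from 1272 and 1385 to between 1921 and 1953. Of the 4 tested, 2 rose in the authors' deposited table, where 20% of all tested features rose. PECAM1, at -0.16 (adjusted p = 0.859), and CDH5, at 0.47 (adjusted p = 0.0675), did not pass there. CD68, the leukocyte marker with recovered reads, had 177 and 197 normalized counts in siNC and 117 to 143 in siHOTAIR, while PTPRC and CD3E have no row and ITGAM has a mean under 1. The part of these shifts in the values below was not tested, and in bulk RNA fewer cells of a type and less RNA per cell cannot be told apart.

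Of the 10 members, 9 had an upstream sequence in the RefSeq promoter table of build GRCh38.p14. For 3 of the members that changed, the stretch upstream of the start site free of annotated exons is shown so that their makeup can be compared. The BAX stretch lies at chr19:48954625-48954814 on the plus strand, the BCL2L1 stretch at chr20:31723990-31724213 on the minus strand and the BID stretch at chr22:17774496-17774639 on the minus strand, each printed 5′ to 3′ in the direction of the gene, ending 60, 26 and 26 bases before the start site. Capitals mark CACGTG, the E-box bound by MYC and USF factors, in BAX, and GGGCGG or its reverse complement CCGCCC, the GC box bound by SP1-type factors, in BID.
BAX: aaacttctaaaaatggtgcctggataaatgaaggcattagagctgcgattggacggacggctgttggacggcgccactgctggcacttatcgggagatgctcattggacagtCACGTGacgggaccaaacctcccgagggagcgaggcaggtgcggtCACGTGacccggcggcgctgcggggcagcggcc
BCL2L1: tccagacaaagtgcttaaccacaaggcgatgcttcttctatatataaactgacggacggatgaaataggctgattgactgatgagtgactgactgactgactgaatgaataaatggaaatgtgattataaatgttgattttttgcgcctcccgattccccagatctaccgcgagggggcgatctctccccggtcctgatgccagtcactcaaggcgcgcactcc
BID: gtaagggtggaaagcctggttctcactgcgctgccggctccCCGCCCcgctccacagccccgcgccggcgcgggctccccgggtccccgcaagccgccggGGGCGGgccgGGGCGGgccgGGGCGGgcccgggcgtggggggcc
The BAX stretch holds 2 E-boxes, the BCL2L1 stretch none of the motifs searched, and the BID stretch 4 GC boxes in a sequence of 84.0% G and C, against 61.1% for BAX and 47.8% for BCL2L1.

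Over the full 250 bases upstream, BAX held 4 CACGTG motifs, 2 of them in the part not printed, counted once for both strands because the motif is its own reverse complement, and BBC3 held 1. This E-box was found in 6.49% of 27305 promoters, and 4 or more copies in 0.0183%. GGGCGG, read on both strands, was present in 6 of the 9 members, against 42.3% of all promoters with at least 1 copy. BID and PMAIP1 held 4 copies each, BCL2L11 held 3, BAK1 held 2 and BAX and BAD 1 each. Of all promoters, 7.82% held 4 or more copies. TTCNNNGAA, the core of STAT sites, was found in none of the 9 windows and in 6.78% of all promoters. These matches describe letters in a window and say nothing about the binding of a factor in these cells.

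Among the members, BCL2L1 and BID rose after HOTAIR knockdown, MCL1 and BAX fell, and the other 6 did not pass the threshold, an adjusted p under 0.05 as the authors' deposited table gives it. The 4 of 10 members called, 40.0%, stand beside a background of 40.4% of the 14597 features with an adjusted p (20% rose and 20.4% fell). The share called is thus near the background. All 10 members had an adjusted p. In the authors' deposited table the members' median log2 fold change was 0.21, against 0.01 over all features tested, and 7 of the 10 values lay above 0. None of the 10 carries the word up or down in the authors' deposited table, words given to 3.91% of all features, each with at least a 2-fold change. The siHOTAIR and siNC libraries did not overlap for 8 members, 5 higher and 3 lower in siHOTAIR, beside 67.4% (32.4% higher and 34.9% lower) of the 11670 features with recovered reads and a mean of at least 20.

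**Figure D1:**
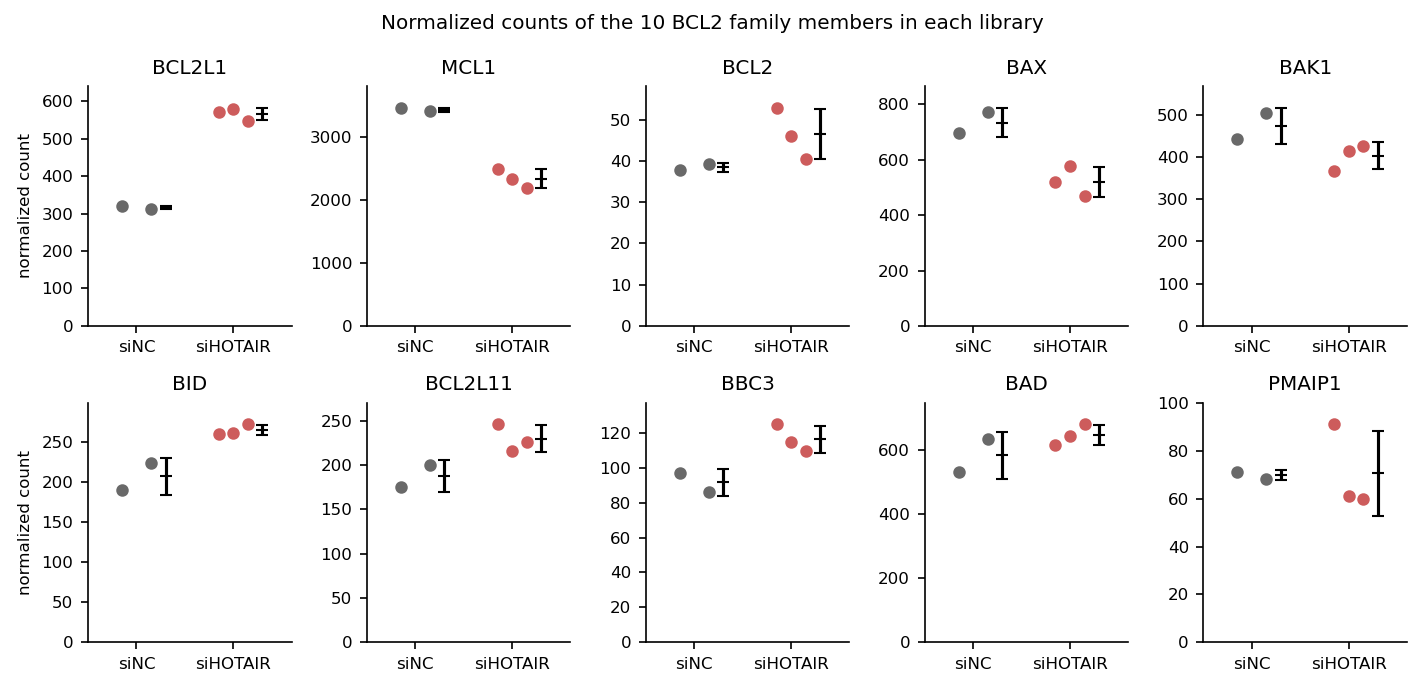
Normalized counts (reads divided by the library's size factor, linear axis from 0 in each panel) of the 10 members in the 2 siNC and 3 siHOTAIR libraries, with each group's mean and SD to the right of its points. BCL2L1 sits at 313 and 320 in siNC and between 547 and 579 in siHOTAIR, MCL1 and BAX lie lower in all 3 siHOTAIR libraries, and the points of BAD and PMAIP1 overlap between groups.

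The pro-survival genes moved in opposite directions. BCL2L1, which encodes the BCL-XL protein, had 320 and 313 normalized counts in siNC A and B and 572, 579 and 547 in siHOTAIR A, B and C. Every siHOTAIR library lay far above both siNC libraries, and the spread within each group was small, 316 ± 5.11 (SD, n = 2) against 566 ± 16.6 (SD, n = 3). By the authors' deposited table BCL2L1 rose 1.78-fold, which is 0.83 as log2 (SE 0.104, adjusted p = 2.84e-14). This was the largest change of the 10 members in that table, in size and in significance. MCL1, the short-lived pro-survival protein that binds BAK1, BCL2L11 and PMAIP1, was the most abundant member by reads, with 3452 and 3407 normalized counts in siNC and 2494, 2333 and 2187 in siHOTAIR. All 3 siHOTAIR libraries were lower than both siNC libraries, at 68.2% of the siNC mean, 3430 ± 31.6 (SD, n = 2) against 2338 ± 154 (SD, n = 3). The authors' deposited table puts MCL1 at a log2 value of -0.55, 1.46-fold lower (SE 0.0723, adjusted p = 6.44e-13). BCL2, the founding member, was the least abundant, with 37.7 and 39.2 normalized counts in siNC and 52.8, 46.0 and 40.6 in siHOTAIR. Its siHOTAIR values were all higher, though the lowest of them was close to the siNC values. The log2 fold change of BCL2 in the authors' deposited table was 0.27 (SE 0.28, adjusted p = 0.486), with a 95% interval from -0.28 to 0.81 on 35 to 61 reads per library.

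Because 1 of these genes rose and another fell, the mix of their transcripts shifted. BCL2L2, a pro-survival gene outside the members, is not counted in this mix. It had 462 and 404 normalized counts in siNC and 299 to 353 in siHOTAIR. A ratio of reads taken inside a library does not depend on its size factor. There were 10.8 and 10.9 MCL1 reads for each BCL2L1 read in siNC A and B, and 4.36, 4.03 and 3.99 in siHOTAIR A, B and C. The ratio was thus 2.63-fold lower in siHOTAIR, 4.13 ± 0.204 (SD, n = 3) against 10.8 ± 0.0753 (SD, n = 2), a difference many times the spread within either group. As shares of the reads of BCL2, BCL2L1 and MCL1 together, MCL1 made up 90.6% in both siNC libraries and 80.0%, 78.9% and 78.8% in siHOTAIR. BCL2L1 made up 8.40% and 8.32% in siNC and 18.3%, 19.6% and 19.7% in siHOTAIR. BCL2 stayed a minor part, with 0.989% and 1.04% in siNC and 1.69%, 1.56% and 1.46% in siHOTAIR. MCL1 therefore remained the main pro-survival transcript by reads in every library. The ratios given here were chosen after the values were seen and were not tested.

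The effectors were both lower in siHOTAIR, and only BAX passed the test. BAX, which moves from the cytosol to mitochondria when activated, had 697 and 772 normalized counts in siNC A and B and 519, 576 and 468 in siHOTAIR A, B and C. The highest siHOTAIR library lay below the lowest siNC library, and the siHOTAIR mean was 70.9% of that of siNC, 521 ± 54.3 (SD, n = 3) against 734 ± 53.3 (SD, n = 2). BAX fell by 0.49 as log2, 1.40-fold, in the authors' deposited table (SE 0.102, adjusted p = 1.13e-05). BAK1, the effector that sits in the outer mitochondrial membrane, had 444 and 504 normalized counts in siNC and 366, 415 and 427 in siHOTAIR. The groups did not overlap, but siHOTAIR B and C came close to siNC A. The log2 fold change of BAK1 was -0.23 in the authors' deposited table (SE 0.11, 95% interval -0.45 to -0.02), and its adjusted p of 0.0802 did not pass. With limma on the recovered normalized counts the same difference of -0.23 passed, at an adjusted p of 0.0395 by Benjamini-Hochberg over 11670 features, where 53.6% of features passed (47.9% with a lower mean limit of 5, 54.1% by limma-voom), and the adjusted p ran from 0.0218 to 0.359 when single libraries were left out. Between the effectors, BAX had 1.57 and 1.53 reads for each BAK1 read in siNC and 1.42, 1.39 and 1.09 in siHOTAIR. That ratio was lower in every siHOTAIR library, by 1.19-fold in the mean, and siHOTAIR C made the largest part of the difference.

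BAX set against its inhibitors gives the ratio often quoted for this family. Reads of BAX per read of BCL2L1 were 2.18 and 2.47 in siNC and 0.908, 0.994 and 0.854 in siHOTAIR. BAX reads thus outnumbered BCL2L1 reads in both siNC libraries and were below them in all 3 siHOTAIR libraries, a 2.53-fold lower mean ratio. These ratios are not corrected for transcript length, which is 793 bases for BAX and 2610 for BCL2L1 (principal transcripts). Per kilobase BAX stayed above BCL2L1 in both groups, at 926 against 121 in siNC and 657 against 217 in siHOTAIR. Against BCL2, BAX had 18.5 and 19.7 reads per read in siNC and 9.82, 12.5 and 11.5 in siHOTAIR. This ratio was 1.69-fold lower in the mean and did not overlap between groups.

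**Figure D2:**
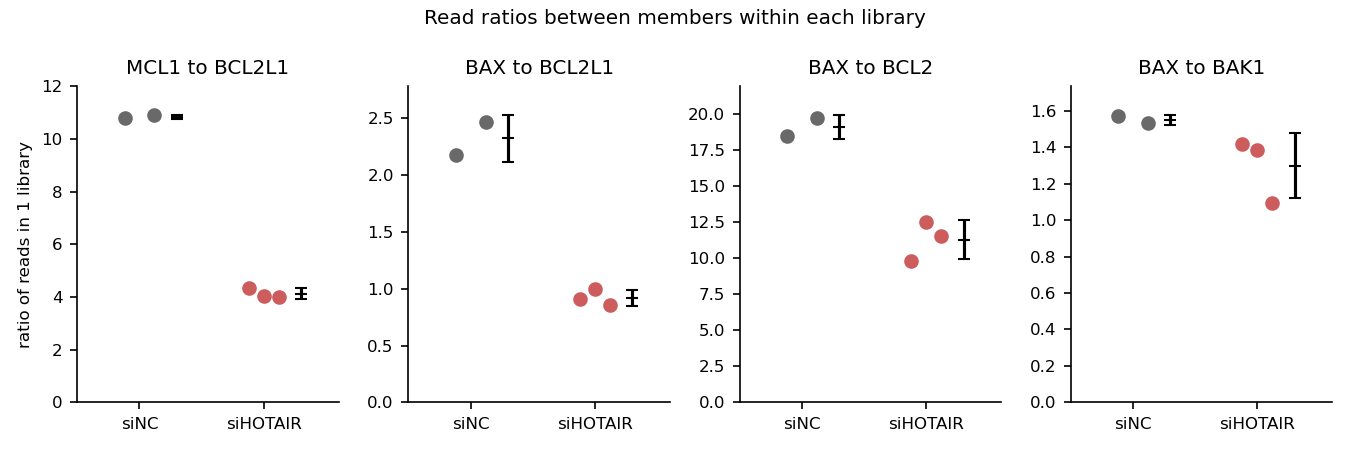
Ratios of reads between pairs of members inside each library (linear axes from 0), which do not depend on size factors, with the group mean and SD beside the points. MCL1 to BCL2L1 drops from 10.8 and 10.9 in siNC to between 3.99 and 4.36 in siHOTAIR, and BAX to BCL2L1 from above 2 to below 1. Reads are not corrected for transcript length.

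Of the 5 BH3-only genes, BID rose and the other 4 did not pass. BID, which is cut by the initiator caspase of death receptors and then activates BAX and BAK1, had 191 and 224 normalized counts in siNC A and B and 261, 262 and 273 in siHOTAIR A, B and C. The 3 siHOTAIR values lay together above both siNC values, at 128% of their mean, 265 ± 6.46 (SD, n = 3) against 207 ± 23.5 (SD, n = 2). BID rose 1.28-fold, by 0.36 as log2, in the authors' deposited table (SE 0.134, adjusted p = 0.022). The authors' call was not rerun with libraries left out. By limma the log2 difference of BID was 0.36 with all libraries and 0.47 without siNC B. It was 0.24 and no longer passed without siNC A, a fit that leaves 1 siNC library. With single siHOTAIR libraries left out, the adjusted p by limma ran from 0.0109 to 0.0189. BCL2L11, which encodes the activator BIM, had 175 and 201 normalized counts in siNC and 246, 216 and 226 in siHOTAIR. The groups did not overlap and the siHOTAIR mean was 122% of that of siNC. Its log2 fold change of 0.29 in the authors' deposited table (SE 0.141, 95% interval 0.02 to 0.57) had an adjusted p of 0.0836 and did not pass. By limma on the recovered counts BCL2L11 passed, with a log2 difference of 0.29 and an adjusted p of 0.0321, and the adjusted p ran from 0.0282 to 0.293 when single libraries were left out.

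BBC3, which encodes the BH3-only protein PUMA, had 97.1 and 86.3 normalized counts in siNC A and B and 125, 115 and 109 in siHOTAIR A, B and C. All siHOTAIR values were higher than both siNC values. The authors' deposited table puts BBC3 at 0.33 on that scale (SE 0.188, adjusted p = 0.155) with an interval from -0.04 to 0.70. By limma BBC3 passed only without siHOTAIR C, at an adjusted p of 0.0406 in a range of 0.0406 to 0.277. BAD, which binds BCL2 and BCL2L1 unless it is phosphorylated, had 533 and 636 normalized counts in siNC and 618, 644 and 682 in siHOTAIR. siNC B lay inside the siHOTAIR range, so the groups overlapped. For BAD the authors' deposited table has a log2 value of 0.15 (SE 0.0999, adjusted p = 0.236) and an interval from -0.05 to 0.35. Without siNC B, BAD passed by limma at 0.28 with an adjusted p of 0.0374, in a range of 0.0374 to 0.875. PMAIP1, which encodes the MCL1-binding protein NOXA, had 71.2 and 68.3 normalized counts in siNC and 91.0, 61.0 and 59.7 in siHOTAIR. siHOTAIR A was the highest of the 5 libraries and siHOTAIR B and C the lowest. The log2 fold change of PMAIP1 in the authors' deposited table was 0.03 (SE 0.236, adjusted p = 0.943, interval -0.43 to 0.49), and its sign turned to -0.01 with limma.

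**Figure D3:**
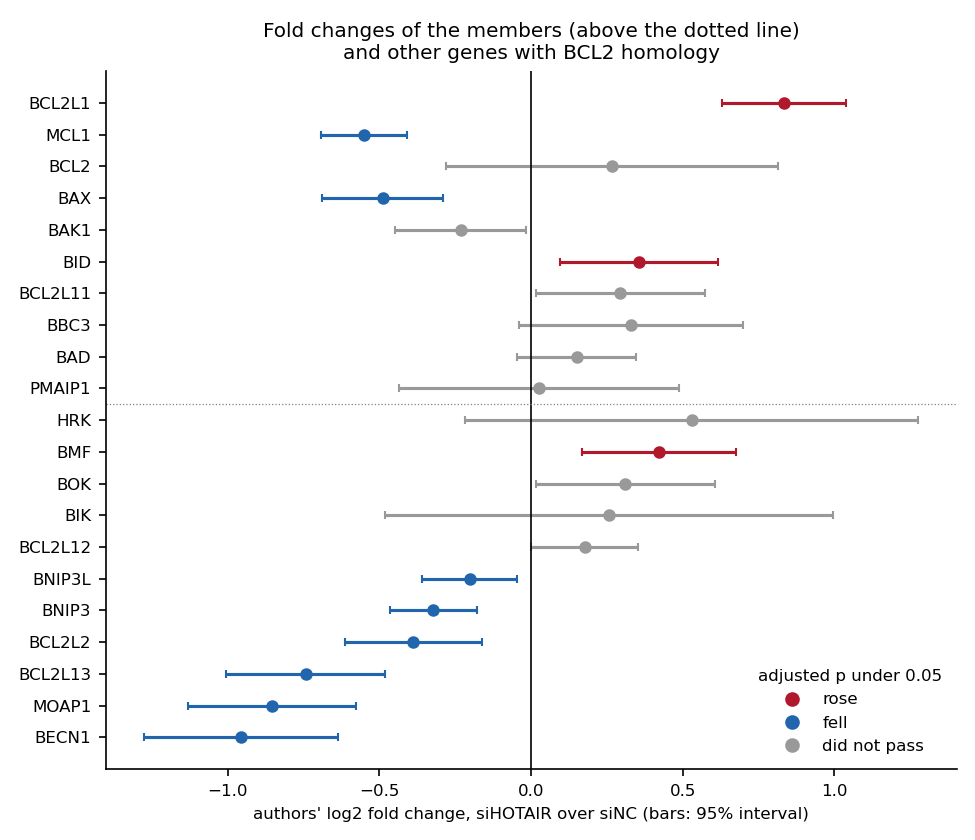
Log2 fold changes, siHOTAIR over siNC, from the authors' deposited table, with bars of 95% intervals, for the 10 members (above the dotted line) and the other genes with BCL2 homology that have an adjusted p. BCL2L1 at 0.83 and MCL1 at -0.55 lie on opposite sides of 0, and below the line the colours show 6 genes that fell and 1, BMF, that rose.

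The BH3-only genes BID and BCL2L11 were also set against MCL1, the pro-survival member that fell. BID had 0.0553 and 0.0658 reads per MCL1 read in siNC A and B and 0.105, 0.112 and 0.125 in siHOTAIR A, B and C, a 1.88-fold higher mean ratio. BCL2L11 had 0.0507 and 0.0589 reads per MCL1 read in siNC and 0.0986, 0.0927 and 0.104 in siHOTAIR, 1.79-fold higher in the mean. In both ratios every siHOTAIR library lay above both siNC libraries, and MCL1 reads still outnumbered those of each BH3-only gene in every library. MCL1 itself stood at 68.2% of its siNC mean in siHOTAIR. Any gene that did not fall as far therefore has a higher ratio to it, so the rise is not particular to BID and BCL2L11.

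Levels were compared between members as normalized counts per kilobase of the principal GENCODE 29 transcript, within each group. In siNC the order was BAX at 926 ± 67.2 (SD, n = 2), MCL1 at 872 ± 8.03, BAD at 505 ± 63.0, BAK1 at 222, BCL2L11 at 123 ± 11.9, BCL2L1 at 121 ± 1.96, BID at 83.2, BBC3 at 49.9, PMAIP1 at 35.8 and BCL2 at 5.15 per kilobase. In siHOTAIR it was BAX at 657 ± 68.4 (SD, n = 3), MCL1 at 595 ± 39.1, BAD at 560 ± 27.7, BCL2L1 at 217 ± 6.35, BAK1 at 189, BCL2L11 at 151 ± 9.94, BID at 106, BBC3 at 63.2, PMAIP1 at 36.2 and BCL2 at 6.23. BCL2L1 thus stood below BAK1 in siNC and above it in siHOTAIR. BAX and MCL1 differed by less than the larger of their SDs in both groups, as did BCL2L11 and BCL2L1 in siNC and MCL1 and BAD in siHOTAIR. With the merged length of all annotated exons MCL1 came first in both groups, at 840 in siNC and 572 in siHOTAIR. On that length BAX stood at 520 and BAD at 441 in siNC, and BAD at 488 and BAX at 369 in siHOTAIR, while BCL2L11 dropped to 30.8 and 37.7, beside PMAIP1 at 33.2 and 33.6. The order of BAX and MCL1 and the place of BCL2L11 therefore depend on the length assumed, that of BAX and BAD on the length and the group, and BCL2 was lowest in both groups with both lengths.

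The wider BCL2-homology group was examined as a list of 15 further genes, of which 11 had an adjusted p. Of these, 6 fell, 1 rose and 4 did not pass in the authors' deposited table, 63.6% called beside the background of 40.4%, with a median log2 fold change of -0.20. BECN1, the autophagy protein whose BH3 domain is bound by BCL2, had 214 and 211 normalized counts in siNC and 112, 121 and 91.2 in siHOTAIR, and in the authors' deposited table it fell by 0.95 (SE 0.163, adjusted p = 5.27e-08). MOAP1, an adaptor that binds BAX, fell by 0.85 in the authors' deposited table (adjusted p = 1.52e-08), from 265 and 272 normalized counts to between 143 and 151. BCL2L13, a mitophagy receptor of the outer mitochondrial membrane, fell by 0.74 (adjusted p = 2.61e-07) and BNIP3, a mitophagy receptor induced by hypoxia, fell by 0.32 (adjusted p = 6e-05), both in the authors' deposited table. BCL2L2, the pro-survival gene for BCL-W, and BNIP3L complete those that fell, and BMF, a BH3-only gene, is the 1 that rose, at 0.42 in the authors' deposited table (adjusted p = 0.00411). HRK, a BH3-only gene, had a log2 fold change of 0.53 on a mean of 20.7 in the authors' deposited table and did not pass (adjusted p = 0.279). The genes of this list that fell thus have mixed roles, with receptors of mitophagy and a regulator of autophagy beside the BAX adaptor MOAP1 and the pro-survival gene BCL2L2. No set of autophagy genes was examined here.

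Genes acting upstream and downstream of the family were read from 10 lists that hold 88 genes, the 15 just described among them. Of the 83 with an adjusted p, 13 rose, 30 fell and 40 did not pass in the authors' deposited table. That is 51.8% called, beside 40.4% of all features tested (20% rose and 20.4% fell), and the same background stands beside the counts of each list that follows. Upstream of the BH3-only proteins and BCL2L1, the list of 10 transcription factors had 1 gene that rose, 3 that fell and 6 that did not pass. STAT5A, an activator of BCL2L1 in blood cells, had 913 and 883 normalized counts in siNC and 354, 386 and 379 in siHOTAIR, all far below. STAT5A fell by 1.26 (SE 0.0946, adjusted p = 2.01e-38), and its paralog STAT5B fell by 0.80 (adjusted p = 7.74e-23), in the authors' deposited table. The authors' deposited table also gives a rise of 0.84 for E2F1, the cell cycle factor (adjusted p = 2.32e-17), and 0.12 for ATF4, the stress factor, which did not pass (adjusted p = 0.134). Any link between these changes and that of BCL2L1 was not tested.

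Kinases that phosphorylate BAD, its phosphatase and the 14-3-3 proteins that bind it made up a list of 16, of which 3 rose, 5 fell and 8 did not pass in the authors' deposited table. AKT1, the survival kinase that phosphorylates BAD, went from 1210 and 1256 normalized counts in siNC to 1986, 1996 and 2084 in siHOTAIR. AKT1 rose by 0.71 (adjusted p = 2.19e-22) and AKT2 by 0.40 (adjusted p = 7.51e-08), whereas the kinase gene PIM1 fell by 0.55 (adjusted p = 2.64e-07), in the authors' deposited table. YWHAZ, a 14-3-3 gene, fell by 0.66 in the authors' deposited table (adjusted p = 7.64e-21), and SFN, another, had 0.09 and did not pass (adjusted p = 0.358). Among 9 genes for the turnover of MCL1 and BH3-only proteins, 1 rose, 4 fell and 4 did not pass in the authors' deposited table. Those that fell include HUWE1, a ubiquitin ligase of MCL1, at -0.33 (adjusted p = 0.000153), BTRC at -0.51 (adjusted p = 0.000312) and RNF7 at -0.41 (adjusted p = 0.00092) in the authors' deposited table. TRIM17, a ubiquitin ligase described for MCL1 in neurons, rose by 0.71 in the authors' deposited table (adjusted p = 0.0232), and the deubiquitinase USP9X, at -0.16, did not pass (adjusted p = 0.0534). Of the dynein light chains that hold BCL2L11 and BMF at the cytoskeleton, DYNLL2 rose by 0.70 (adjusted p = 5.47e-08) and DYNLL1, at 0.08, did not pass (adjusted p = 0.52), both in the authors' deposited table.

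Of the 11 tested death receptor genes upstream of BID, 2 rose, 2 fell and 7 did not pass in the authors' deposited table, 36.4% called. FADD, the adaptor of these receptors, rose by 0.52 (adjusted p = 4.4e-05) while RIPK1, a kinase of the same complexes, fell by 0.54 (adjusted p = 8.83e-05) and CASP8, the caspase that cuts BID, fell by 0.45 (adjusted p = 0.00507), all in the authors' deposited table. TNFRSF1A, a receptor of tumour necrosis factor, rose by 0.18 in the authors' deposited table (adjusted p = 0.0179), and CASP10, at -0.33, did not pass (adjusted p = 0.256). At the outer membrane, 3 of 7 partners of BAX and BAK fell, none rose and 4 did not pass in the authors' deposited table. In the authors' deposited table their log2 fold changes were -0.48 for MFF, a receptor for the fission machinery (adjusted p = 2.48e-05), -0.38 for MTCH2, a receptor of BID (adjusted p = 6.35e-05), and -0.24 for VDAC2, which binds BAK (adjusted p = 0.00997). BCAP31, at 0.19, did not pass in the authors' deposited table (adjusted p = 0.0555). Any link between these changes and that of BID was not tested.

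Downstream of the pores, 2 of 7 apoptosome and intermembrane-space genes rose, 3 fell and 2 did not pass in the authors' deposited table. APAF1, the scaffold of the apoptosome, fell by 0.58 (adjusted p = 5.91e-05), DIABLO, an antagonist of inhibitor of apoptosis proteins, fell by 0.50 (adjusted p = 7.86e-06) and AIFM1, the apoptosis-inducing factor, fell by 0.39 (adjusted p = 7.93e-05), as the authors' deposited table gives them. CASP9, the initiator caspase bound by APAF1, rose by 0.40 in the authors' deposited table (adjusted p = 0.0067), and ENDOG, at 0.31, did not pass (adjusted p = 0.0583). Of 7 caspases, 2 rose, 2 fell and 3 did not pass in the authors' deposited table. CASP10, also in this list, did not pass, as given above. CASP2 fell by 0.31 in the authors' deposited table (adjusted p = 0.00576). Of 6 inhibitor of apoptosis genes, 1 rose, 3 fell and 2 did not pass in the authors' deposited table. Those that fell were BIRC3 at -0.83 (adjusted p = 1.76e-13), BIRC6 at -0.48 (adjusted p = 1.34e-06) and XIAP, the direct caspase inhibitor, at -0.35 (adjusted p = 0.00692) in the authors' deposited table. BIRC5, the mitotic protein survivin, rose by 0.56 (adjusted p = 5.36e-09), and BIRC2, at 0.18, did not pass (adjusted p = 0.221), in the authors' deposited table. No list moved in 1 direction only among its called genes except the outer-membrane partners, where the 3 called genes fell, and the dynein partners, with 1 called gene.

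**Figure D4:**
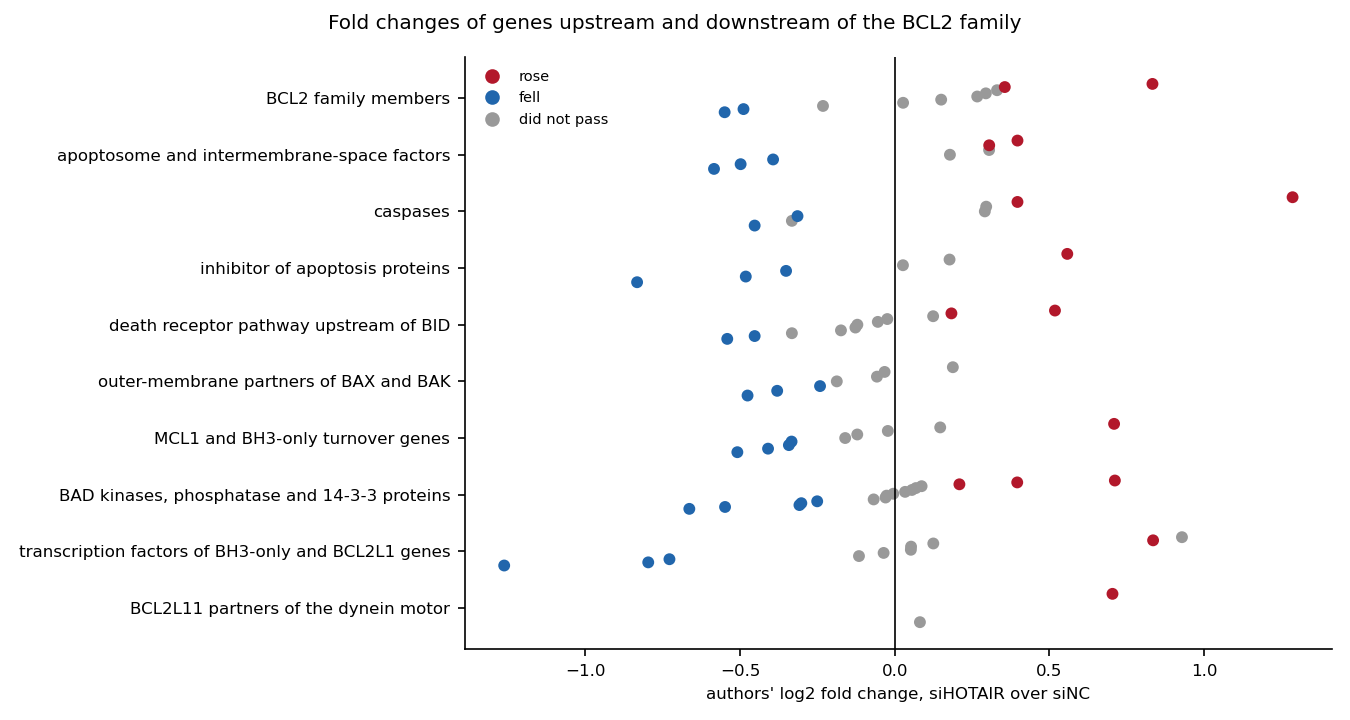
Log2 fold changes, siHOTAIR over siNC, from the authors' deposited table for each gene with an adjusted p, in rows by list, coloured by whether it rose, fell or did not pass an adjusted p of 0.05. The members span from MCL1 at -0.55 to BCL2L1 at 0.83, and STAT5A at -1.26 lies beyond that range on the left.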

How the data were processed

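RNA depleted of ribosomal RNA was sequenced after stranded library preparation, per the labels' protocols. The authors used HTSeq 0.6.1, DESeq and DESeq2 with the build hg19, per the submitters' processing notes. The aligner, the annotation and the strand setting were not given in the sources used here. Reads of overlapping and antisense genes may not be separated. What the authors deposited is their comparison, with 0 columns for single libraries. Its mean column is a signal made by the authors, the average of size-factor-scaled counts. Its log2 fold changes with their standard errors were made by the authors and are shrunken toward 0 where reads are few, and the 95% intervals given here are 1.96 SE wide on each side. Its p-values, adjusted ones included, are also those the authors deposited, and a call needs an adjusted p under 0.05. Its statistic is a score the authors deposited, equal to log2 fold change over SE. Of the features, 19494 of 19589 found a symbol in the RefSeq gene table (GRCh38.p14), and 14597 have an adjusted p.

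Reads per library were recovered in Python 3.11.15 (NumPy 2.4.6, SciPy 1.17.1, SymPy 1.14.0). Each deposited mean, given to 15 significant digits, is a whole-number sum of 5 steps, 1 per library, which held for each of the 3940 lowest features (means of at most 2) within 1e-10. A step was assigned to a group by the sign of the deposited fold change of features with a single read there, never by HOTAIR or a member. Means of 5 to 3000 gave reads for 13733 of 13736 features. From a mean of 20 on, the solution also had to return the deposited fold change, which it did within 1.04e-06 for 10807 features, and this chose among several whole-number solutions, as for MCL1. A further 863 features with means up to 100 had a single whole-number solution and were accepted without that check. All members and HOTAIR met it. In simulated data 450 of 450 features were recovered. limma 3.58.1 (R 4.3.3) with a mean trend was run as an alternative on log2 of the normalized count plus 1, for 11670 features with a mean of at least 20, with Benjamini-Hochberg adjustment. It replaces the planned count tests, since the columns used hold no counts per library. On simulated counts it called 94 of 100 changes of 1 on the log2 scale, 39 of 100 of 0.5 and 4 of 11470 unchanged features. The simulation used the same dispersion for all features, and its share of changed features was far below the 53.6% called in the data. Its rates of calls therefore do not carry over to these data.

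The members and lists were chosen with earlier results of these data known. Genes named are the members and HOTAIR, in each list the called genes or the 4 with the smallest p, and the gene with the largest change among those that did not pass with a mean of at least 20. BMF, BCL2L2, BNIP3L, the lineage markers and the read ratios were picked with their values in view. Some genes that the rule names are not reported here.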

Additional observations from a re-analysis of the deposited data

How the results depend on the processing

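The calls of BCL2L1, MCL1, BAX and HOTAIR kept their direction and stayed past 0.05 under each limma setting run and with each library left out. The members that rose numbered 2 and those that fell 2. At an adjusted p under 0.01 they numbered 1 and 2, and the share of all features there is not reported here. By the authors' own words up and down both numbered 0, beside 3.91% of all features. By limma 3 rose and 3 fell, where 53.6% of all features were called. With single siHOTAIR libraries left out by limma, 2 to 4 rose and 2 to 3 fell, where 45.9% to 51.9% of all features were called. Leaving out an siNC library leaves 1, which is assumed to vary like the others, so counts from those fits are left out here. BAK1 passed by limma at -0.23 under both pseudocounts and the lower mean limit of 5 (adjusted p 0.0395, 0.0396 and 0.0439) and at -0.23 by limma-voom, an alternative chosen after seeing the data (adjusted p 0.0361). BCL2L11 passed likewise, at 0.29 under these 3 limma settings (adjusted p 0.0321, 0.032 and 0.0365) and 0.31 by limma-voom (adjusted p 0.0253). PMAIP1 turned from 0.03 to -0.011 under the same 3 limma settings, and to -0.039 without siNC B and -0.21 without siHOTAIR A. The cause of these differences was not tested. All features were also called more often by limma, 53.6% against 40.4%.

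With single libraries left out by limma, the log2 differences ran from 0.16 to 0.35 for BCL2, 0.82 to 0.86 for BCL2L1, -0.60 to -0.51 for MCL1, -0.57 to -0.42 for BAX and -0.33 to -0.14 for BAK1. They ran from 0.25 to 0.42 for BBC3, -0.21 to 0.09 for PMAIP1, 0.24 to 0.47 for BID, 0.02 to 0.28 for BAD, 0.19 to 0.39 for BCL2L11 and -1.59 to -1.17 for HOTAIR. BAK1 passed without siNC A (-0.33) or siHOTAIR C (-0.28), and BCL2L11 without siNC B (0.39), siHOTAIR B (0.33) or siHOTAIR C (0.30). BBC3 passed without siHOTAIR C (0.38) and BAD without siNC B (0.28), and BID no longer passed without siNC A (0.24). Centring on the median of all features moved values by 0.01. No paired analysis was possible because the recovered libraries carry no replicate numbers. Depth limits BCL2, PMAIP1 and BBC3 most, and intervals cover these libraries' spread only.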

Other observations

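Genes beside the 4 members that changed, 2 on each side in the RefSeq order, were looked at as values. Of 14 such neighbours with an adjusted p, 4 rose and 4 fell in the authors' deposited table, beside 40.4% of all tested features called (20% rose and 20.4% fell). Near BCL2L1, ID1, listed 2 genes away, an inhibitor of differentiation factors, rose by 1.01 in the authors' deposited table (SE 0.0826, adjusted p = 1.84e-32), from 768 and 909 normalized counts in siNC to 1658, 1744 and 1670 in siHOTAIR. The gene listed directly after BCL2L1, TPX2, a spindle assembly factor, had 0.09 in the authors' deposited table and did not pass (adjusted p = 0.309). Next to MCL1, ENSA, an inhibitor of a mitotic phosphatase, rose by 0.82 in the authors' deposited table (adjusted p = 1.41e-26) where MCL1 itself fell, and ADAMTSL4, listed 2 genes away, fell by 0.53 (adjusted p = 2.43e-10). FTL, the ferritin light chain gene that follows BAX, rose by 0.79 in the authors' deposited table (adjusted p = 3.99e-18) where BAX fell. BCL2L13, the neighbour of BID and itself a BCL2-homology gene, fell by 0.74 (adjusted p = 2.61e-07) and ATP6V1E1, listed 2 genes away, a subunit of the vacuolar ATPase, fell by 0.59 (adjusted p = 2.42e-10) in the authors' deposited table, where BID rose. At MCL1, BAX and BID the gene listed next to the member on 1 side thus moved the other way. On the other side the adjacent gene had no row at MCL1, and DHDH at BAX and MICAL3 at BID did not pass. Listed 2 genes from BAX, GYS1 fell as BAX did (-0.18, adjusted p = 0.026) and NUCB1 rose (0.26, adjusted p = 0.00181) in the authors' deposited table. These genes were chosen by position and the pattern was not tested.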
